A study of Mus musculus with 6 samples.

Results

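Respiratory complex assembly factors are proteins that help to build the complexes of the mitochondrial respiratory chain and ATP synthase without, for the most part, remaining in the finished enzyme. A list of 44 such genes, covering 5 complexes, was matched by gene symbol to a table of 49315 genes, and all 44 were found. Of these, 14 act on complex I, 4 on complex II, 6 on complex III, 17 on complex IV and 3 on complex V. Their transcripts were counted in gastrocnemius muscles of male C57BL6J mice, an inbred strain, that had been injected at 5 months of age and were harvested 5 months later. The test muscles received AAV9-HSA-CAAHR, an adeno-associated virus that carries a constitutively active aryl hydrocarbon receptor (AHR), a transcription factor made independent of its ligand by removal of the ligand-binding domain. Control muscles received AAV9-HSA-GFP, the same kind of vector with green fluorescent protein. In both groups the human skeletal actin promoter limited expression to muscle fibres, while the RNA came from whole muscle. Each group held 3 libraries, replicates 31, 34 and 36 for AAV9-HSA-CAAHR and 42, 43 and 46 for AAV9-HSA-GFP.

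Complexes I, III and IV pass electrons from NADH to oxygen and pump protons, complex II feeds electrons from succinate, and complex V, the ATP synthase, uses the proton gradient. Each complex is put together from modules, and assembly factors insert iron-sulphur clusters, flavin, heme and copper, hold intermediates in the inner membrane, or chaperone single subunits. Muscle depends heavily on these enzymes, and loss of many of these factors is a known cause of human mitochondrial disease of muscle, heart and brain.

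Library totals ranged from 43432994 to 58825752 counts, and levels are given as CPM, counts relative to the library total after TMM scaling (trimmed mean of M values). The delivered gene was detected in its group, since Ahr and 4 AHR target genes were higher in AAV9-HSA-CAAHR muscles (5 of 5 called), and the skeletal muscle markers Acta1, Ckm, Mb, Des, Ttn and Myh4 were abundant in all 6 libraries. The sum of these 6 was nevertheless lower in every AAV9-HSA-CAAHR library (109597.5 to 143102.0 CPM) than in every AAV9-HSA-GFP library (166131.4 to 170725.7 CPM), and Acta1 and Ckm were called lower. The libraries also differed in markers of slow fibres, the oxidative fibre type. The summed level of the 10 slow fibre markers was 2829.4, 664.7 and 2556.8 CPM in CAAHR replicates 31, 34 and 36 and 236.4, 344.6 and 475.8 CPM in GFP replicates 42, 43 and 46, and all 10 had a higher sign in AAV9-HSA-CAAHR muscles, with Myh7b called. Of 12 fast fibre markers, 3 were called lower, with summed levels of 150545.3 to 207609.5 CPM against 212398.4 to 219247.9 CPM. Markers of other cells moved too. The 7 B and plasma cell markers summed to 9.61 to 19.3 CPM against 127.3 to 431.9 CPM (4 called lower), the 9 macrophage markers to 19.8 to 34.8 CPM against 41.3 to 82.9 CPM (0 called), the 7 adipocyte markers to 86.5 to 139.4 CPM against 109.2 to 231.1 CPM (3 called lower), the 6 Schwann cell markers to 49.2 to 81.0 CPM against 78.7 to 136.6 CPM (0 called), and the 6 endothelial cell markers to 172.0 to 248.4 CPM against 173.9 to 218.4 CPM (0 called). The part of fibre type and of these cells in the results was not tested, other than by a fit with the slow fibre markers as a covariate. In whole muscle, fewer cells of a type and less RNA per cell cannot be told apart. No library came from muscle without virus, so every difference is relative to muscles with the GFP vector. The paper reports that this vector promotes a local immune response. By qPCR it found selected immune genes not lower in CAAHR muscles than in muscles of uninfected mice.

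The comparison asked whether transcripts of the assembly factors differed in muscles with AAV9-HSA-CAAHR from those with AAV9-HSA-GFP. Few did. Cox19 and Cox17, both handling copper for complex IV, were higher, Ndufaf6, a complex I factor, was lower, and none of the other tested members passed the test. Of the 44 members, 42 had enough counts for the test, and 3 of 42 (7.14%) had an adjusted p under 0.05 in the quasi-likelihood F test of edgeR, adjusted by Benjamini-Hochberg over 15847 genes. Among all tested genes the share called was 7.6%, with 3.04% higher (members, 2 of 42) and 4.57% lower (members, 1 of 42), so that the members were called about as often as any gene. An unadjusted p under 0.05 was found for 8 of 42 members (19.0%) and for 23.9% of all tested genes. The values of the groups did not overlap for 16 of 42 members (38.1%), 10 above and 6 below, against 29.9% of all tested genes. The median log2 fold change of the 42 members was 0.04, and that of all tested genes was 0.01.

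**Figure D1:**
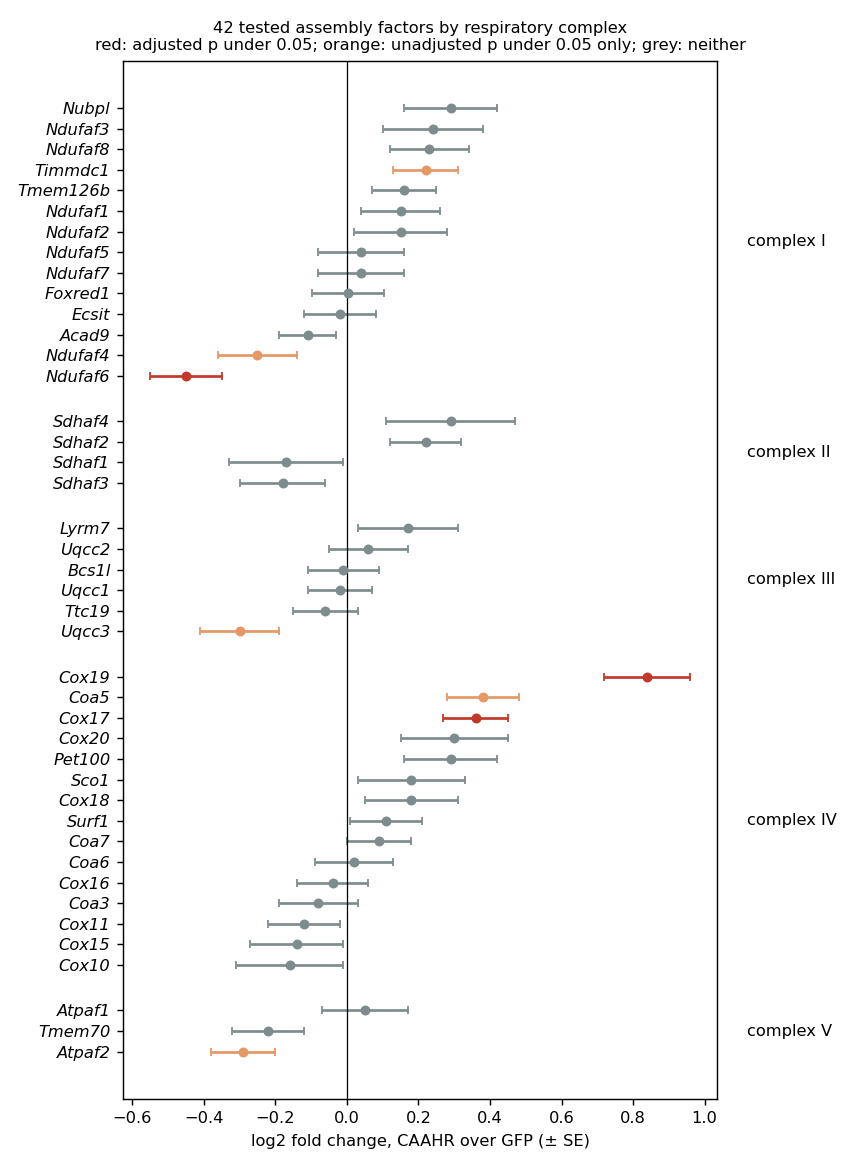
The plot of log2 fold changes shows each of the 42 tested members as a point with its standard error, grouped by complex, with the 3 called members marked. Cox19 stands at 0.84, apart from the other members, which lie between -0.45 and 0.38.

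Cox19 and Cox17 are small copper-related proteins of the intermembrane space, and Cox17 hands copper to the factors that load it into the COX1 and COX2 subunits. Cox19 (ENSMUSG00000045438, GRCm38 chromosome 5, 139336189 to 139351418, minus strand) was at 39.6, 37.1 and 48.1 CPM in AAV9-HSA-CAAHR muscles and 22.0, 22.2 and 25.3 CPM in AAV9-HSA-GFP muscles. All 3 CAAHR libraries lay well above the 3 GFP libraries. CAAHR 34 was lowest of its group in both Cox19 and summed slow fibre markers. In those markers it still lay above the GFP libraries (664.7 against 236.4 to 475.8 CPM). The means were 41.6 ± 5.77 and 23.2 ± 1.88 CPM (SD, n = 3 each), a 1.80-fold ratio, and the log2 fold change was 0.84 ± 0.12 (SE) with an edgeR adjusted p of 0.00336. Cox19 was called in 6 of 6 fits that left out 1 library each, with log2 fold changes of 0.72 to 0.91 and adjusted p-values of 0.00131 to 0.0154. With the slow fibre markers as a covariate in the edgeR fit, the log2 fold change was 0.54 and the adjusted p was 0.175. The exons of Cox19 overlap no other annotated gene.

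Cox17 (ENSMUSG00000046516, chromosome 16, 38346991 to 38352763, plus strand) was at 18.2, 17.9 and 18.9 CPM against 13.5, 14.2 and 15.1 CPM. The groups did not overlap, with 17.9 CPM in the lowest CAAHR library and 15.1 CPM in the highest GFP library. Its mean was 18.3 ± 0.499 CPM against 14.3 ± 0.81 CPM, and the log2 fold change of 0.36 ± 0.09 had an edgeR adjusted p of 0.0489, close to the threshold. Cox17 was called in 0 of 6 fits that left out 1 library (adjusted p 0.064 to 0.171), and its log2 fold change with the slow fibre covariate was 0.25 (adjusted p 0.511). With all 6 libraries, the edgeR call was also lost with DESeq2 size factors (adjusted p 0.0539) and with upper-quartile scaling (0.097). It was kept with library-size scaling alone (0.0245). Of the Cox17 exon bases, 4.5% are shared with Gm21987, which had 0 to 2 counts per library.

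The other factors for copper did not pass the test. Cox11, which delivers copper to COX1, was at 12 to 12.6 CPM against 13.2 to 14.0 CPM with a log2 fold change of -0.12, though 48.3% of its exon bases are shared with Tom1l1 on the opposite strand. Sco1, a copper chaperone for COX2, had a log2 fold change of 0.18 at 5.48 to 7.04 CPM against 4.95 to 5.91 CPM. Coa6, which acts with the SCO proteins, was at 10.4 to 10.7 CPM against 9.16 to 11 CPM. Sco2, the second of those chaperones, had 3 to 11 counts per library and was not tested, and 68.3% of its exon bases lie in Tymp on the same strand. Summed over the 6 copper genes the level was 87.6, 83.5 and 96.0 CPM in AAV9-HSA-CAAHR muscles and 62.9, 67.4 and 70.1 CPM in AAV9-HSA-GFP muscles. This grouping was made after the values were seen and holds Cox19 and Cox17, both called higher, so the sums add no separate evidence. Cox19 made up most of the difference between those sums, as its own means differed by more CPM than those of any other member of the group.

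**Figure D2:**
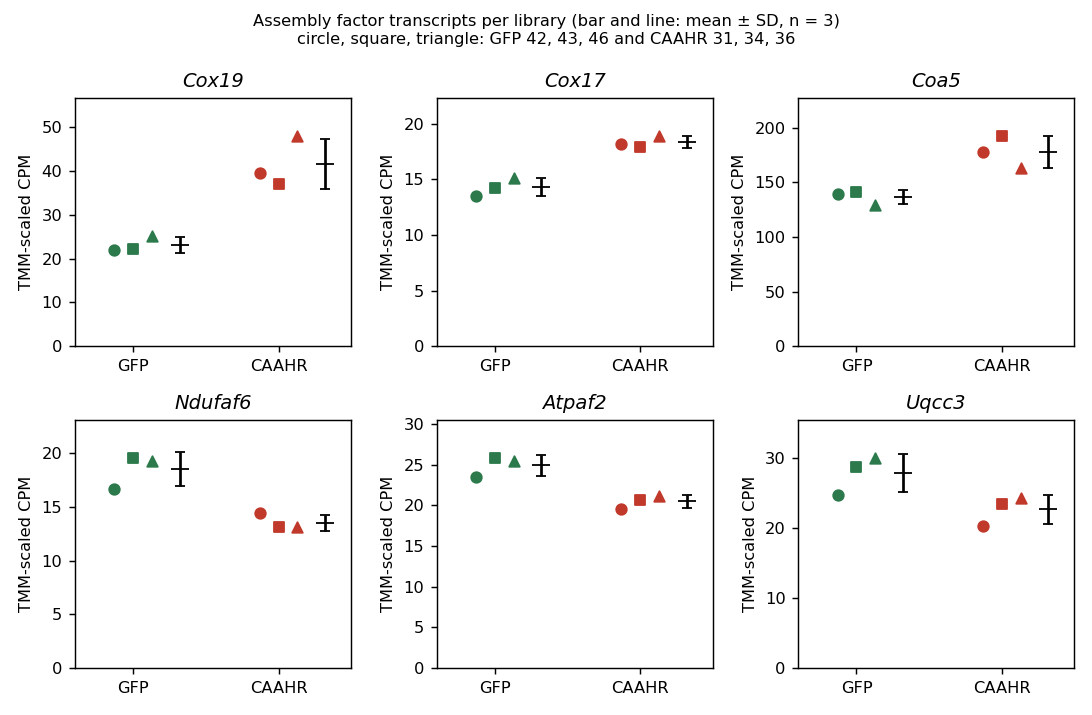
The plot of CPM by library shows Cox19, Cox17, Coa5, Ndufaf6, Atpaf2 and Uqcc3 on linear axes that start at 0, with 1 symbol per library and the mean ± SD of each group (n = 3) beside it. The Cox19 points of AAV9-HSA-CAAHR muscles (37.1 to 48.1 CPM) sit above those of AAV9-HSA-GFP muscles (22.0 to 25.3 CPM), and those of Ndufaf6 sit below (13.1 to 14.4 against 16.7 to 19.6 CPM).

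Ndufaf6 (ENSMUSG00000050323, chromosome 4, 11051045 to 11076205, minus strand), a protein of the matrix side of the inner membrane that is needed early in complex I assembly, was the member that was called lower. It was at 14.4, 13.1 and 13.1 CPM in AAV9-HSA-CAAHR muscles and 16.7, 19.6 and 19.3 CPM in AAV9-HSA-GFP muscles, and every CAAHR library lay below every GFP library. The means were 13.5 ± 0.777 and 18.6 ± 1.60 CPM, with a log2 fold change of -0.45 ± 0.10 and an edgeR adjusted p of 0.0302. Leaving out 1 library gave log2 fold changes of -0.52 to -0.41 and adjusted p-values of 0.0323 to 0.115, and the call was kept only without CAAHR 34 or without GFP 42. Scaling by library size alone (-0.37, adjusted p 0.0587) or adding the slow fibre covariate (-0.60, adjusted p 0.157) also ended the call.

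Coa5 (ENSMUSG00000026112, chromosome 1, 37417084 to 37430103, minus strand), a complex IV factor of the same cysteine-rich protein family as Cox17 and Cox19, was the most abundant member in CPM and missed the threshold narrowly. It was at 177.4, 192.5 and 163.4 CPM against 139.2, 141.2 and 129.3 CPM, so the groups lay clearly apart. The log2 fold change was 0.38 ± 0.10, with an unadjusted p of 0.00393 and an edgeR adjusted p of 0.0506. Coa5 was called in 0 of 6 edgeR fits that left out 1 library (adjusted p 0.0808 to 0.147). By edgeR it was called with library-size scaling alone (adjusted p 0.0202) and without the filter (0.0143). It was not called with upper-quartile scaling (0.0977) or the slow fibre covariate (0.0814). DESeq2, the tool of the study, gave a log2 fold change of 0.37 with an adjusted p of 0.00994. By adjusted p alone DESeq2 called Coa5, Cox17, Cox19 and Ndufaf6. The study also required an absolute log2 fold change above 1. With DESeq2 these genes were at 0.37, 0.35, 0.83 and -0.47, below that cut-off in size. The paper nonetheless shows Ndufaf6 among its differentially expressed genes, as lower in AAV9-HSA-CAAHR muscles. The sign of each of the 4 genes called by DESeq2 was the same under all 7 alternative settings and in all 6 fits that left out 1 library.

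**Figure D3:**
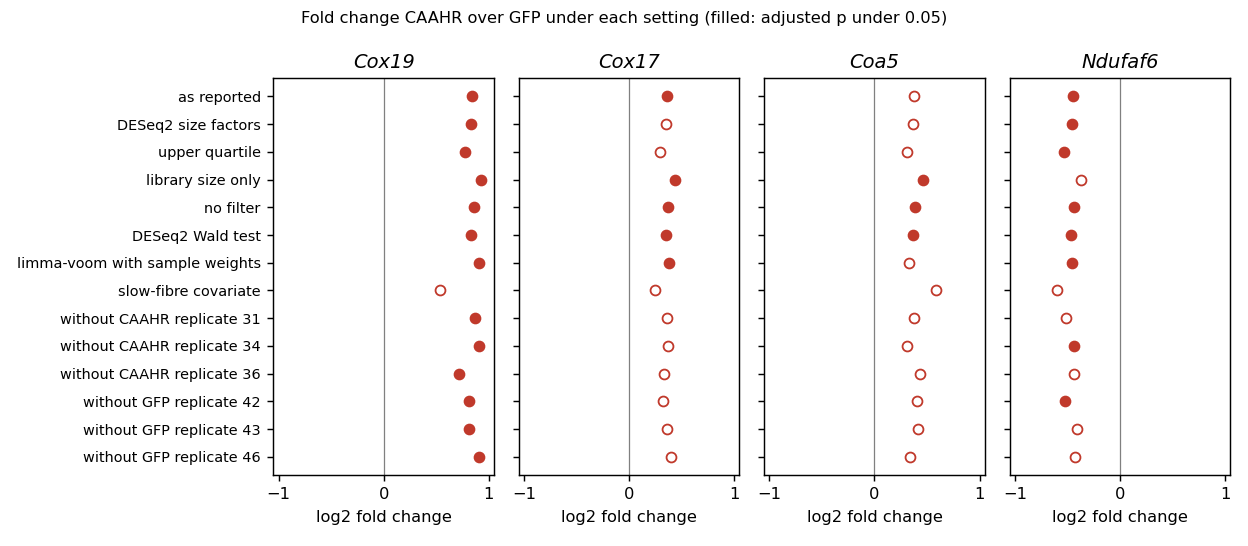
The plot of log2 fold changes by setting shows Cox19, Cox17, Coa5 and Ndufaf6 in the reported fit and in each alternative, with filled points where the adjusted p was under 0.05. Cox19 stayed between 0.54 and 0.93 and lost its call with the slow fibre covariate alone, while Cox17 ranged from 0.25 to 0.44, Coa5 from 0.31 to 0.59 and Ndufaf6 from -0.60 to -0.37.

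Since the delivered gene encodes a transcription factor, the region around the start of each gene was searched for GCGTG, the core letters that AHR and its partner ARNT bind, on either strand (CACGC on the printed strand). RefSeq windows on GRCm38.p6, 250 bases before to 50 bases after the start, were matched for 38 members, with 40 windows. Tmem70, Coa6, Acad9, Ndufaf6, Cox17 and Cox18 had no entry. The letters stood in 22 of 40 member windows (55.0%), in 39 of 72 windows of the nuclear subunits of the same complexes (54.2%) and in 32.4% of all 32851 windows. These shares were not matched for the content of G and C, which was 45.3% to 76.7% in the member windows. The difference from all windows was therefore not tested as a trait of the members. Windows are shown for the members with an entry that had the smallest p-values, Cox19 and Coa5 with a higher sign and Atpaf2, a complex V factor, with a lower sign. Each is given from 5′ to 3′ on the strand of the gene, with the letters GCGTG or CACGC in capitals. Cox19 is read from chr5:139345117-139345416 (minus strand), Coa5 from chr1:37430054-37430353 (minus strand) and Atpaf2 from chr11:60416985-60417284 (minus strand). For Cox19 and Atpaf2 the start lies inside the gene as the GENCODE annotation records it.
Cox19: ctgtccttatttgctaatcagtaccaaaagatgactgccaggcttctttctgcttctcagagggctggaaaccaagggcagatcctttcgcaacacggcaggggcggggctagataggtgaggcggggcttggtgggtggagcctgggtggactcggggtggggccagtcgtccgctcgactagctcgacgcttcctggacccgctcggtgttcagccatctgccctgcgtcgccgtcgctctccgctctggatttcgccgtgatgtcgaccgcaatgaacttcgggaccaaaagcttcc
Coa5: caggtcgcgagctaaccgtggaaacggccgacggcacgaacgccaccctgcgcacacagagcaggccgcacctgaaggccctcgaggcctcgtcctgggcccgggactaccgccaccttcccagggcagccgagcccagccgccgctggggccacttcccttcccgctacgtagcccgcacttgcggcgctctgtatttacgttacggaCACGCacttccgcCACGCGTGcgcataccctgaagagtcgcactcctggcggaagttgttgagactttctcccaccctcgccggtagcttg
Atpaf2: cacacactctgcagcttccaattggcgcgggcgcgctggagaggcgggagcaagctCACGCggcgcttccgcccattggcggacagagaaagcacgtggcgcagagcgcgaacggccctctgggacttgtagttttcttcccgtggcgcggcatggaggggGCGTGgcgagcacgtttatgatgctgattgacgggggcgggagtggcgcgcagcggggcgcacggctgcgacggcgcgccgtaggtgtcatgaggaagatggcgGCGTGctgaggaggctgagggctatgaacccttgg

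The Cox19 window, from the gene with the largest fold change, held 0 matches, whereas Coa5 and Atpaf2 held 3 each, of which a pair in Coa5 overlapped. Neither Coa5 nor Atpaf2 passed the test, and of the called members only Cox19 had a window. A match of letters is a description and not a binding site.

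Complex I factors lay between log2 fold changes of -0.45 and 0.29, and the groups did not overlap for 6 of 14 (42.9%, against 29.9% of all tested genes). Of the 14 members, all tested, 1 was called (Ndufaf6), 3 had an unadjusted p under 0.05, 10 had a higher and 4 a lower sign, and the median log2 fold change was 0.09, against 0.10 for the 36 tested nuclear subunits of complex I. The early membrane arm is built with the MCIA complex (Ndufaf1, Acad9, Ecsit and Tmem126b) and with Timmdc1, and none of these 5 passed the test. Timmdc1 (chromosome 16, 38498347 to 38522663) was at 30.4, 28.5 and 26.1 CPM against 24.1, 25.5 and 23.5 CPM. Its libraries did not overlap between groups, and the log2 fold change of 0.22 ± 0.09 had an unadjusted p of 0.0455 and an edgeR adjusted p of 0.199. Tmem126b (chromosome 7, 90467438 to 90476001) was at 27.0, 28.1 and 27.0 CPM against 23.5, 25.6 and 24.4 CPM (log2 fold change 0.16 ± 0.09, edgeR adjusted p 0.295), also without overlap. Acad9, an acyl-CoA dehydrogenase relative recruited to assembly, lay the other way, at 29.3 to 31 CPM against 31.4 to 33.3 CPM, with a log2 fold change of -0.11. Ndufaf1 had a log2 fold change of 0.15 and Ecsit one of -0.02, and the groups overlapped for both. Of the Ecsit exon bases, 24.0% are shared with the antisense gene Gm16845.

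The factors of the Q module, the part of the peripheral arm that binds quinone, went in both directions. Ndufaf4 (chromosome 4, 24898083 to 24905001) was at 33.3, 27.7 and 27.3 CPM in AAV9-HSA-CAAHR muscles and 32.5, 36.3 and 36 CPM in AAV9-HSA-GFP muscles. CAAHR 31 fell within the GFP range while CAAHR 34 and 36 were below it, and the log2 fold change was -0.25 ± 0.11 (unadjusted p 0.0431, edgeR adjusted p 0.193). Its partner Ndufaf3 had a log2 fold change of 0.24 at 9.96 to 11.6 CPM against 7.98 to 10.6 CPM. Ndufaf8 (chromosome 11, 120098928 to 120100705), which supports Ndufaf5, was at 11.6, 11.1 and 10.9 CPM against 8.60, 9.95 and 10.2 CPM, with every CAAHR library above the GFP libraries, a log2 fold change of 0.23 ± 0.11 and an edgeR adjusted p of 0.255. Ndufaf5 and Ndufaf7, which modify arginine residues of Q module subunits, both had a log2 fold change of 0.04. The 6 Q module factors summed to 95.5 to 106.5 CPM against 99.8 to 114.2 CPM, and these ranges overlapped.

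Nubpl (chromosome 12, 52097737 to 52312744), an iron-sulphur protein that supplies clusters to complex I, was at 6.86, 6.83 and 6.0 CPM against 5.14, 5.70 and 5.29 CPM. The groups did not overlap, and the log2 fold change was 0.29 ± 0.13 with an edgeR adjusted p of 0.210. Ndufaf2, a late factor, had a log2 fold change of 0.15, with 65.6% of its exon bases shared with a non-coding gene on the opposite strand. Foxred1, an oxidoreductase that acts late in complex I assembly, was at 14.7 to 16.6 CPM against 14.5 to 16.7 CPM with a log2 fold change of 0.003, the smallest in size of all tested members.

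Complex II, succinate dehydrogenase, had 4 factors and 0 calls, with 2 signs each way and a median log2 fold change of 0.02, against 0.20 for its 4 subunits. Both factors of the SDHA subunit had a higher sign and both factors of SDHB a lower one. Sdhaf2 (chromosome 19, 10500534 to 10526142), which attaches flavin to the SDHA subunit, was at 36, 29.5 and 31.3 CPM against 26.5, 29.2 and 27.5 CPM, without overlap, and its log2 fold change was 0.22 ± 0.10 (edgeR adjusted p 0.228). Sdhaf4 (chromosome 1, 23995939 to 24005656), which binds SDHA once it carries flavin, was at 15.1, 10.5 and 15.5 CPM against 9.74, 10.2 and 13.6 CPM. Here CAAHR 34 was close to the lower GFP libraries while CAAHR 31 and 36, the libraries with most slow fibre marker, were highest. Its log2 fold change was 0.29 ± 0.18 and reversed to -0.43 with the slow fibre covariate. The factors for the iron-sulphur clusters of SDHB, Sdhaf1 and Sdhaf3, had log2 fold changes of -0.17 and -0.18 with overlapping groups. Sdhaf3 (chromosome 6, 6956004 to 7042979) was at 8.88, 10.3 and 8.32 CPM against 10.6, 10.9 and 9.69 CPM, and reversed to 0.13 with the covariate.

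For complex III, 0 of 6 factors were called, 2 had a higher and 4 a lower sign, and the median log2 fold change was -0.02 (0.07 with scaling by library size alone), against 0.12 for its 9 nuclear subunits. Uqcc3 (chromosome 19, 8880014 to 8880923), which with Uqcc1 and Uqcc2 stabilises cytochrome b, was at 20.2, 23.4 and 24.2 CPM in AAV9-HSA-CAAHR muscles and 24.7, 28.7 and 30 CPM in AAV9-HSA-GFP muscles. The groups did not overlap, though the highest CAAHR value was close to the lowest GFP value, and the log2 fold change of -0.30 ± 0.11 had an unadjusted p of 0.0246 and an edgeR adjusted p of 0.140. Uqcc2 (chromosome 17, 27122663 to 27133916) was at 74.9, 75.3 and 90.6 CPM against 69.8, 79.4 and 81.4 CPM and Uqcc1 at 83.3 to 85.7 CPM against 80.8 to 93.4 CPM, both with overlapping groups. Their log2 fold changes were 0.06 for Uqcc2 and -0.02 for Uqcc1. The factors of the Rieske iron-sulphur protein were close to level between the groups. Bcs1l, which moves the folded Rieske protein across the inner membrane, had a log2 fold change of -0.01, Ttc19, which helps to clear fragments of it, one of -0.06, and Lyrm7, which holds it before insertion, one of 0.17. Lyrm7 (chromosome 11, 54826866 to 54860916) was at 10.6, 7.65 and 8.38 CPM against 7.61, 7.57 and 8.48 CPM, so that CAAHR 31 alone lay above the GFP range.

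Complex IV, cytochrome c oxidase, had the most factors, and the median log2 fold change of its 15 tested members was 0.11, the same as that of its 15 nuclear subunits (0.11). Of the 15, 2 were called higher and 0 lower, 10 had a higher sign and 5 a lower one. Heme A is made by Cox10 and Cox15 and its insertion needs Surf1, and none of these was called. Cox10 was at 33.3 to 41.5 CPM against 33.6 to 50.6 CPM (log2 fold change -0.16), Cox15 at 20.5 to 24.2 CPM against 20.3 to 28.2 CPM (-0.14) and Surf1 at 19.7 to 22.6 CPM against 18.1 to 20.3 CPM (0.11), all with overlapping groups. The factors that place COX2 in the membrane were likewise not called. Cox18 (chromosome 5, 90214724 to 90224001), the insertase, was at 5.99, 5.51 and 6.0 CPM against 5.14, 5.29 and 4.98 CPM, with the groups apart, a log2 fold change of 0.18 ± 0.13 and an edgeR adjusted p of 0.418. Cox20, a COX2 chaperone, had a log2 fold change of 0.30, but 91.1% of its exon bases are shared with Hnrnpu on the opposite strand, whose own log2 fold change was 0.13. Cox16 had a log2 fold change of -0.04 and shares 56.8% of its exon bases with Gm20498 on the same strand.

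Among the remaining complex IV factors, Pet100 (chromosome 8, 3621548 to 3625848), needed in an intermediate step of assembly, was at 6.84, 6.88 and 8.09 CPM against 5.43, 6.22 and 6.23 CPM. All CAAHR libraries were above all GFP libraries, with a log2 fold change of 0.29 ± 0.13 and an edgeR adjusted p of 0.226. Its exons share 52.6% of their bases with Pcp2 on the opposite strand, which had 0 or 1 counts per library. Coa3 (chromosome 11, 101277968 to 101279114), which stabilises newly made COX1, was at 33.0, 35.4 and 37.3 CPM against 32.6, 38 and 41.3 CPM, with overlapping groups and a log2 fold change of -0.08. Coa7, a protein of the intermembrane space, had a log2 fold change of 0.09 at 18.4 to 19.7 CPM against 17.1 to 18.7 CPM. Pet117 had 0 counts in all 6 libraries, which allows up to 3 counts per library, and 100% of its exon bases lie in Kat14 on the same strand, so its transcript could not be judged from these counts.

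Complex V was the complex whose members had the lowest median, -0.22 over 3 members, against 0.06 for its 16 nuclear subunits, with 0 calls among the 3. A further 4 assembly factors of complex V, not among the members, had a median of 0.10, with 2 higher and 2 lower signs. Atpaf2 (chromosome 11, 60400626 to 60418457), the chaperone of the alpha subunit of F1, was at 19.6, 20.7 and 21.2 CPM in AAV9-HSA-CAAHR muscles and 23.5, 25.9 and 25.5 CPM in AAV9-HSA-GFP muscles. Its groups lay apart, with a log2 fold change of -0.29 ± 0.09, an unadjusted p of 0.0105 and an edgeR adjusted p of 0.0866. Atpaf2 was called lower with upper-quartile scaling, under which the median of all tested genes was -0.06 in place of 0.01. Tmem70 (chromosome 1, 16665207 to 16678275), which helps to form the ring of c subunits, was at 46.3, 41.7 and 39.4 CPM against 46.5, 53.4 and 48.3 CPM. The gap between its groups was only that between CAAHR 31 and GFP 42, and the log2 fold change was -0.22 ± 0.10 (edgeR adjusted p 0.213). Atpaf1, the chaperone of the beta subunit, was at 40.7 to 48.9 CPM against 39.2 to 48.9 CPM, with a log2 fold change of 0.05.

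The members were set beside genes that were not used to choose them. Of 81 listed nuclear subunits of the 5 complexes, 80 were found and tested, 0 were called by edgeR and 7 had an unadjusted p under 0.05. The number called was 6 without the filter on low counts (5 higher, 1 lower), 1 with the slow fibre covariate (Ndufs4, log2 fold change -0.83, edgeR adjusted p 0.036) and 1 without CAAHR 34 (Cox8a, 0.39, edgeR adjusted p 0.0434), and 0 under the other settings, both genes being named after their values were seen. Their median log2 fold change was 0.10, and 65 of 80 had a higher sign. The subunits with the smallest p-values were Uqcr11 of complex III, at 129.6, 118.1 and 162.6 CPM against 92.2, 107.3 and 115.8 CPM (log2 fold change 0.38), and Ndufa1 of complex I, at 45.9, 41.7 and 48.9 CPM against 34, 34.9 and 42.2 CPM (0.30). The subunits summed to 20406.3, 16762.1 and 20707.6 CPM in CAAHR 31, 34 and 36 and to 15931.0, 18162.9 and 20758.4 CPM in GFP 42, 43 and 46, and the groups overlapped. Within each group the order of these sums was that of the slow fibre markers, except for CAAHR 31 and 36, whose order was the opposite. The summed level of the 44 members was 1208.0, 1173.1 and 1180.1 CPM against 1069.4, 1169.6 and 1162.3 CPM, without overlap but with a small gap between CAAHR 34 and GFP 43. The sums of the complex IV members lay clearly apart, at 440.3, 442.7 and 436.6 CPM against 366.1, 389.3 and 384.2 CPM. Most of that difference came from Coa5, the most abundant among them (mean 177.8 against 136.5 CPM), and Cox19 (41.6 against 23.2 CPM). Together these genes also differed by more CPM than the sum of all 44 members did. Among the 15 tested complex IV members, 10 had a higher and 5 a lower sign. Of 24 other assembly factors, 21 were found, 0 were called and 1 had an unadjusted p under 0.05, with a median log2 fold change of 0.06. The smallest p-values among them belonged to the complex V factors Tmem242, at 67.5, 74.9 and 73.3 CPM against 53.5, 61.8 and 67.4 CPM (0.24), and Atp5s, at 12.3, 11.4 and 10.6 CPM against 13.3, 12.8 and 13.3 CPM (-0.20). The 12 genes of a list for mitochondrial content went the other way, with 10 lower and 2 higher signs, a median of -0.08, 0 calls and 0 with an unadjusted p under 0.05. Their sums were 5838.4, 5369.5 and 5650.6 CPM in AAV9-HSA-CAAHR and 5843.1, 6246.5 and 6762.8 CPM in AAV9-HSA-GFP muscles, so every CAAHR library lay below the GFP libraries, CAAHR 31 by a small margin.

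**Figure D4:**
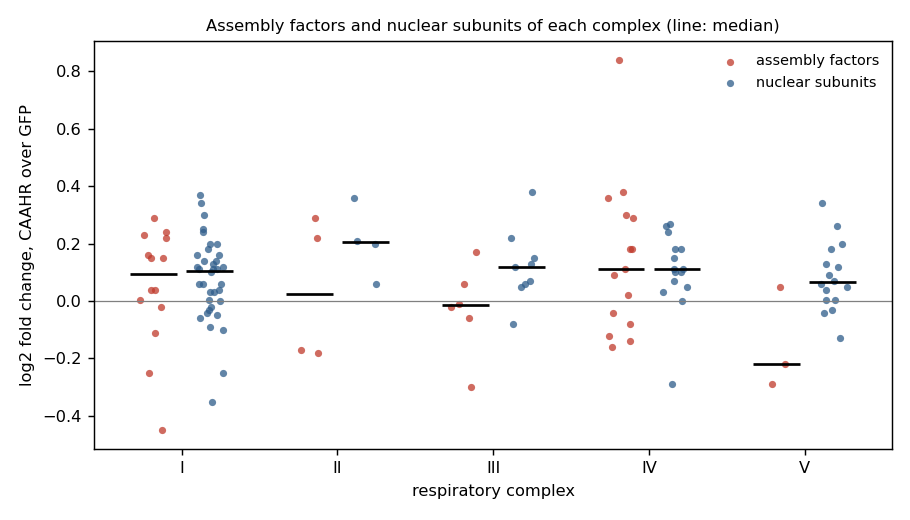
The plot of factors beside subunits shows the log2 fold change (AAV9-HSA-CAAHR over AAV9-HSA-GFP) of each tested gene as a point, by complex, with a line at the median of each list. The medians of the factors run from -0.22 in complex V to 0.11 in complex IV, and those of the subunits from 0.06 in complex V to 0.20 in complex II.

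The level of assembly factors relative to the subunits they serve was compared per library, as the sum of CPM per kilobase of exon over the members of a complex in percent of the same sum over its nuclear subunits. For complex V this was 1.78%, 1.99% and 1.60% in AAV9-HSA-CAAHR muscles and 2.22%, 2.30% and 1.81% in AAV9-HSA-GFP muscles, a ratio of the means of 0.849. CAAHR 34 lay above the lowest GFP library, so the groups overlapped. For complex III it was 9.50%, 12.1% and 10.8% against 12.3%, 12.3% and 11.1%, a ratio of 0.906. The values for complexes I, II and IV gave ratios of 0.963, 0.986 and 1.01, and the groups overlapped in all 5 complexes. In complexes I, III, IV and V the highest percentage among the CAAHR libraries was that of CAAHR 34.

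Levels between genes were compared as CPM per kilobase of exon in AAV9-HSA-GFP muscles. The median of the 42 tested members was 8.29, with a range of 1.08 to 91.8, which was below the median of the 80 subunits (103.4) and above that of all tested genes (1.67). In complex I the highest member was Ecsit (31.4), at 75.8, 75.7 and 79.6 CPM in AAV9-HSA-CAAHR and 70.3, 76.1 and 88.4 CPM in AAV9-HSA-GFP muscles, and the lowest was Nubpl (1.08). In complex II these were Sdhaf4 (12.8) and Sdhaf3 (2.04), in complex III Uqcc2 (91.8) and Lyrm7 (1.56), and in complex V Tmem70 (27.1) and Atpaf2 (11.7). Atpaf1 at 11.8 CPM per kilobase did not differ from Atpaf2 beyond their spread. In complex IV the highest was Coa3 (42.1) and the lowest tested member was Sco1 (1.38), at 7.04, 5.48 and 5.89 CPM against 4.95, 5.91 and 5.40 CPM, while Sco2, not tested, was at 0.108. Cox19 was at 6.18 CPM per kilobase in AAV9-HSA-GFP muscles and 11.1 in AAV9-HSA-CAAHR muscles, and Cox17 at 2.47 and 3.17. These levels use the length of all annotated exons of a gene together, so a gene with long or rarely used exons is placed lower.

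**Figure D5:**
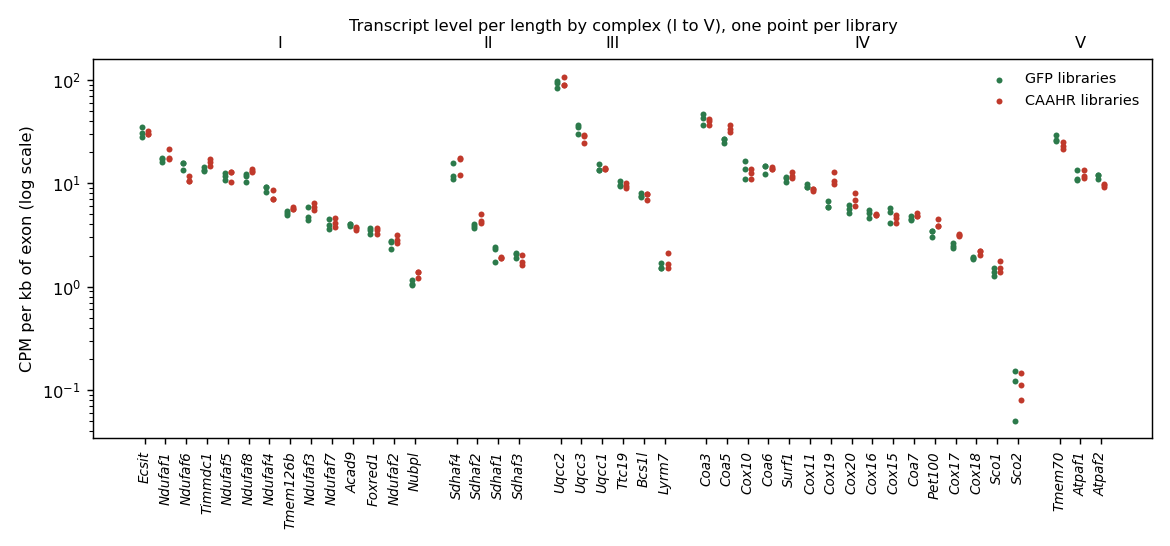
The plot of levels shows CPM per kilobase of exon for each member on a log axis, with 1 point per library and the members ordered within each complex, with Pet117 left out because it had no counts. Uqcc2 is the highest member (91.8 in AAV9-HSA-GFP muscles), and Sco2 (0.108) is the lowest shown.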

How the data were processed

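Counts per gene were deposited by the authors as raw whole numbers for 6 gastrocnemius libraries in 1 table, not normalised and not pooled. As described by the authors, RNA was poly(A) selected and sequenced as paired ends, trimmed (Trimmomatic 0.36), aligned to GRCm38 (STAR 2.5.2b) and counted with featureCounts from unique reads in exons. Strandedness of the libraries is not given in the sources used here, and the counts of the 20 members whose exons overlap another gene are therefore uncertain. Groups and replicate numbers came from the labels, which do not say that each library is a separate animal, so p-values measure the spread between libraries. No column of other samples was present.

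The test used edgeR 4.0.16 (R 4.3.3) after filterByExpr (15847 of 49315 genes) with TMM scaling, the robust quasi-likelihood F test and Benjamini-Hochberg adjustment over all tested genes at a threshold of 0.05. Standard errors were derived from the F statistic. Per-kilobase levels used exon lengths and positions from GENCODE M21 (GRCm38), in which 99.3% of genes were found. A count of 0 allows up to 3 counts, for counting error only. Alternatives were DESeq2 1.42.0 (size factors and Wald test), upper-quartile and library-size scaling, no filter on low counts, limma 3.58.1 voom with sample weights, a slow-fibre score as covariate, leaving out each library and, for the ratio to subunits, sums without length. The script was tested on simulated data. All 44 members were named. Given in full were those called, then up to 12 by smallest p among those with an unadjusted p under 0.05 or groups that did not overlap, then the highest and lowest per length in each complex, and of the comparison lists the 2 genes with the smallest p. Members and lists were chosen with earlier results of these data known, and the grouping by role was made after their values were seen. A planned search of protein sequences for cysteine and LYR motifs was not run here.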

Additional observations from a re-analysis of the deposited data

How the results depend on the processing

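No paired analysis was possible because no replicate number occurs in both groups. With 3 libraries a group, small differences in these low to moderate counts can be missed, and the cause of the changes below was not tested. The members called were 2 to 4 under the other scalings, tests and filter, and 0 with the slow-fibre covariate, which differed between the groups itself. Leaving out a library left 1 to 2 calls, and without CAAHR 31, CAAHR 36, GFP 43 or GFP 46 this was Cox19 alone (the number of samples was also lower). Genes called, 1205 in the reported fit, were 2470 without the filter, 1923 with DESeq2, 436 with the covariate, and 530 (without CAAHR 36) to 1727 (without CAAHR 34) with 1 library left out, the counts without CAAHR 31, GFP 43 and GFP 46 being 694, 701 and 604.

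Median log2 fold changes with the covariate were -0.05 for all members, -0.17 for complex II, -0.19 for complex III and 0.01 for complex IV. Upper-quartile scaling gave -0.09 for complex III and 0.03 for complex IV, and library size alone 0.07 and 0.19. Leaving out a library gave medians of 0.007 to 0.10 for all members. The ratios to subunits moved by less than the spread between replicates in sums without length, and with 1 library left out they were 0.914 to 1.02, 0.958 to 1.02, 0.851 to 0.96, 0.917 to 1.06 and 0.793 to 0.894 for complexes I to V.

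Signs of single members reversed under some settings, most often with the covariate, which also reversed members reported at up to 0.29. With the covariate the log2 fold changes were -0.10 for Ndufaf1, -0.06 for Ndufaf3, 0.13 for Sdhaf3, -0.43 for Sdhaf4, -0.14 for Uqcc2, -0.22 for Lyrm7, -0.12 for Sco1, 0.02 for Cox15, 0.03 for Cox16, -0.08 for Coa6 and -0.14 for Atpaf1. With upper-quartile scaling they were -0.03 for Ndufaf5, -0.03 for Ndufaf7, -0.07 for Foxred1, -0.01 for Uqcc2, -0.05 for Coa6 and -0.03 for Atpaf1, and with library size alone 0.06 for Ecsit, 0.07 for Bcs1l, 0.02 for Ttc19, 0.07 for Uqcc1 and 0.04 for Cox16. Foxred1 was at -0.0068 with DESeq2 size factors, -0.0065 with DESeq2 and -0.0039 with voom, Ecsit and Bcs1l were each at 0.02 with voom, and Bcs1l was at 6.8e-06 without the filter. With 1 library left out, signs changed for Atpaf1 (-0.04 to 0.15), Bcs1l (-0.06 to 0.04), Coa6 (-0.06 to 0.06), Cox10 (-0.29 to 0.002), Cox16 (-0.11 to 0.02), Ecsit (-0.09 to 0.07), Foxred1 (-0.05 to 0.05), Ndufaf5 (-0.02 to 0.14), Ndufaf7 (-0.04 to 0.12), Uqcc1 (-0.05 to 0.05) and Uqcc2 (-0.04 to 0.10). Of the remaining checks on single members, 256 kept direction and side of the threshold under other settings and 223 with 1 library left out.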
